A study of Astyanax mexicanus with 96 samples.

Results

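The response of the cavefish ventricle 1 day after cryo-injury was taken from 10 of the 96 libraries of the series, each made from the ventricle of 1 Mexican tetra (Astyanax mexicanus). They were the 5 ventricles of Pachón cavefish (PC) collected 1 day post cryo-injury (PC 1 dpci) and the 5 collected 1 day post sham surgery (PC 1 dps), chosen by their sample titles. In both groups the ventricle was exposed under anaesthesia. A copper probe cooled in liquid nitrogen was applied to its tip in the injured fish, and a probe at room temperature was applied in the sham fish. Further libraries served for comparison: 5 PC ventricles at each of 6 h and 3 days after cryo-injury and after sham surgery (PC 6 hpci, PC 6 hps, PC 3 dpci, PC 3 dps), 5 ventricles of surface fish (SF, the river population of the species) at each of SF 1 dpci and SF 1 dps, and 3 uninjured PC ventricles. All fish were wild type and about 2 years old, and the time of day of collection was not given in the sources used here. Each library counted transcripts of the whole ventricle by reads at their 3′ ends, so wound, border zone and remote muscle were measured together. Levels are given as CPM, read counts scaled to the size of each library and normalized between libraries, in the order of the replicate numbers.

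In fish, frost damage kills part of the ventricular wall. Neutrophils and then macrophages enter such wounds, clear dead tissue with lysosomal cathepsins, and release enzymes that loosen the matrix. The endocardium, the endothelium that lines the chamber, uses Notch signalling in the zebrafish heart, in which the ligand Dll4 on a cell activates the receptor Notch1b on its neighbour, and genes of the Hes/Her family follow. Cardiomyocytes next to a zebrafish wound lose part of their contractile programme and later divide. The comparison asked which of these programmes had moved by 1 day in the cavefish ventricle beyond the effect of opening the chest and touching the heart.

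The 10 libraries held 1434397 to 2164715 reads in PC 1 dpci and 1249199 to 1824383 reads in PC 1 dps. Markers of heart muscle were present: 8 tested cardiomyocyte genes summed to 15490 to 31890 CPM in PC 1 dpci and 34950 to 46860 CPM in PC 1 dps, with tnnc1a listed at 0. This sum does not separate ventricular from atrial muscle. Genes were tested with edgeR's quasi-likelihood test in a model of all 96 libraries that held 1 factor of unwanted variation (RUVg), and Benjamini-Hochberg adjusted p-values were taken over all 18763 genes tested. Genes with an adjusted p under 0.05 that changed more than 2-fold were called. All adjusted p-values below come from this test, errors of log2 fold changes are standard errors, and errors of CPM are SD over 5 ventricles (3 for uninjured PC). The factor itself differed between the groups, at 0.0132 to 0.0903 in PC 1 dpci and -0.0521 to 0.0175 in PC 1 dps libraries. A fitted log2 fold change can therefore depart from the ratio of the CPM values beside it.

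Of 18763 genes tested, 266 (1.42%) were called between PC 1 dpci and PC 1 dps: 149 were higher (0.794%) and 117 were lower (0.624%). The CPM of the 5 injured and the 5 sham ventricles did not overlap in 218 of the 266 genes. Over all genes tested this held for 7.42% (4.16% higher and 3.26% lower in PC 1 dpci). The median log2 fold change over all genes tested was 0.002. Among the 266 genes, 138 carried gene models made by the authors and 53 overlapped another gene. The count depended on the factor. Without it 779 genes were called (499 higher, 2.66%, and 280 lower, 1.49%), of which 232 were among the 266 with the same direction, and with 2 factors 24 genes were called, of which 19 were among them. Leaving out PC 1 dpci replicate 1 gave 176 called genes and leaving out PC 1 dps replicate 1 gave 167. Of 97 genes that were singled out and called, 57 kept their call with each of the 10 libraries left out in turn, 14 kept it with 2 factors, and 12 kept it in all 24 alternatives: TNFRSF6B, si:ch211-215k15.4, adam8a, ctsla, gpx1b, marcksl1a, zgc:64051 and TINAGL1, which were higher, and ptgdsb.1, hmgb1a, her6 and hmgb3a, which were lower.

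The genes that rose most were close to absent in sham ventricles. The gene si:dkey-88e18.2 (chromosome 18, 7572063 to 7581165 of Mexican tetra 2.0), of unknown function, had 109, 120.0, 171, 146 and 131 CPM in PC 1 dpci ventricles, against 0.498, 1.85, 0, 2.38 and 3.08 CPM in PC 1 dps ventricles (log2 fold change 4.96 ± 0.90, adjusted p = 0.00018). Every injured ventricle stood above 100 CPM, and no sham ventricle passed 4 CPM. TNFRSF6B (chromosome 11, 1807654 to 1816579), whose mammalian counterpart is a decoy receptor that binds Fas ligand, had 65, 129.9, 67.7, 61 and 92.1 CPM in PC 1 dpci ventricles, against 3.49, 4.32, 3.06, 1.78 and 1.54 CPM in PC 1 dps ventricles (log2 fold change 3.66 ± 0.52, adjusted p = 1.4e-06). Its symbol is carried by 2 genes of the annotation, between which reads could be split. The gene si:dkey-33i11.1 (scaffold APWO02000037.1, 1495982 to 1520246), described in the deposited table as the B-cell receptor CD22, had 10.8, 20.3, 17, 22.4 and 15.9 CPM in PC 1 dpci ventricles and no read in any PC 1 dps ventricle. Against a floor of 3 reads per library it was at least 8.88-fold higher (adjusted p = 0.0052). These 3 genes were as low in uninjured ventricles, at 0.556 ± 0.481 CPM, 1.39 ± 1.74 CPM and 0.557 ± 0.965 CPM.

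Several of the next genes are known from leukocytes. The membrane metalloproteinase adam8a had 25.8, 59.2, 51.1, 52.6 and 46.8 CPM in PC 1 dpci ventricles, against 6.98, 4.32, 3.06, 5.94 and 2.31 CPM in PC 1 dps ventricles (log2 fold change 2.60 ± 0.44, adjusted p = 4.6e-05). The urokinase gene plaua, which activates plasminogen, had 16.5, 25.8, 33.7, 13.6 and 15.4 CPM in PC 1 dpci ventricles, against 1.99, 1.23, 2.29, 2.38 and 0.77 CPM in PC 1 dps ventricles (log2 fold change 2.62 ± 0.58, adjusted p = 0.0035). LECT2, a secreted protein that attracts neutrophils, had 8.78, 32.3, 39.1, 14.6 and 18.7 CPM in PC 1 dpci ventricles, against 3.99, 1.23, 3.06, 2.38 and 3.85 CPM in PC 1 dps ventricles (log2 fold change 2.88 ± 0.71, adjusted p = 0.011). In all 3 genes the injured and sham ventricles did not overlap. The rhamnose-binding lectin gene zgc:136410 had 36.14, 54.3, 48.2, 34.4 and 44.9 CPM in PC 1 dpci ventricles, against 6.48, 4.94, 1.53, 2.97 and 7.7 CPM in PC 1 dps ventricles (log2 fold change 2.72 ± 0.50, adjusted p = 0.00021). It overlaps si:ch211-218o21.4 on the other strand. PPARG, a nuclear receptor of lipid storage that macrophages also use, had 16.5, 18.1, 17, 12.5 and 17.8 CPM in PC 1 dpci ventricles, against 2.99, 1.85, 0.764, 1.19 and 1.54 CPM in PC 1 dps ventricles (log2 fold change 2.62 ± 0.54, adjusted p = 0.0013). The injured ventricles lay in a narrow band, and replicate 4 was the lowest of them.

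Among the 12 genes with the largest increases, si:ch211-215k15.4, of unknown function and 1 of 5 genes with its symbol, had 107 to 276 CPM in PC 1 dpci and 6.98 to 47 CPM in PC 1 dps ventricles (log2 fold change 2.93 ± 0.52, adjusted p = 0.00015). Another gene of unknown function, si:dkey-21p1.3, had 55.8 to 142 CPM in PC 1 dpci and 4.32 to 10.7 CPM in PC 1 dps ventricles (log2 fold change 2.85 ± 0.51, adjusted p = 0.00016). The claudin-19-like gene BX649608.2 had 28.4 to 97.6 CPM in PC 1 dpci and 0 to 3.57 CPM in PC 1 dps ventricles (log2 fold change 3.30 ± 0.97, adjusted p = 0.0457), but its call was lost without any of 6 single libraries, PC 1 dpci replicate 1 and each PC 1 dps library (adjusted p 0.0638 to 0.168). The increase of anxa1a, an annexin that limits inflammation, came from PC 1 dpci replicate 4. It had 7.74, 7.67, 2.91, 152 and 2.34 CPM in PC 1 dpci ventricles, against 2.99, 4.32, 8.4, 2.97 and 1.54 CPM in PC 1 dps ventricles (log2 fold change 2.82 ± 0.78, adjusted p = 0.03). Without replicate 4 its log2 fold change was 0.31 with an adjusted p of 1. Leaving out PC 1 dps replicate 1, 2, 4 or 5 gave adjusted p-values of 0.056 to 0.112.

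**Figure D1:**
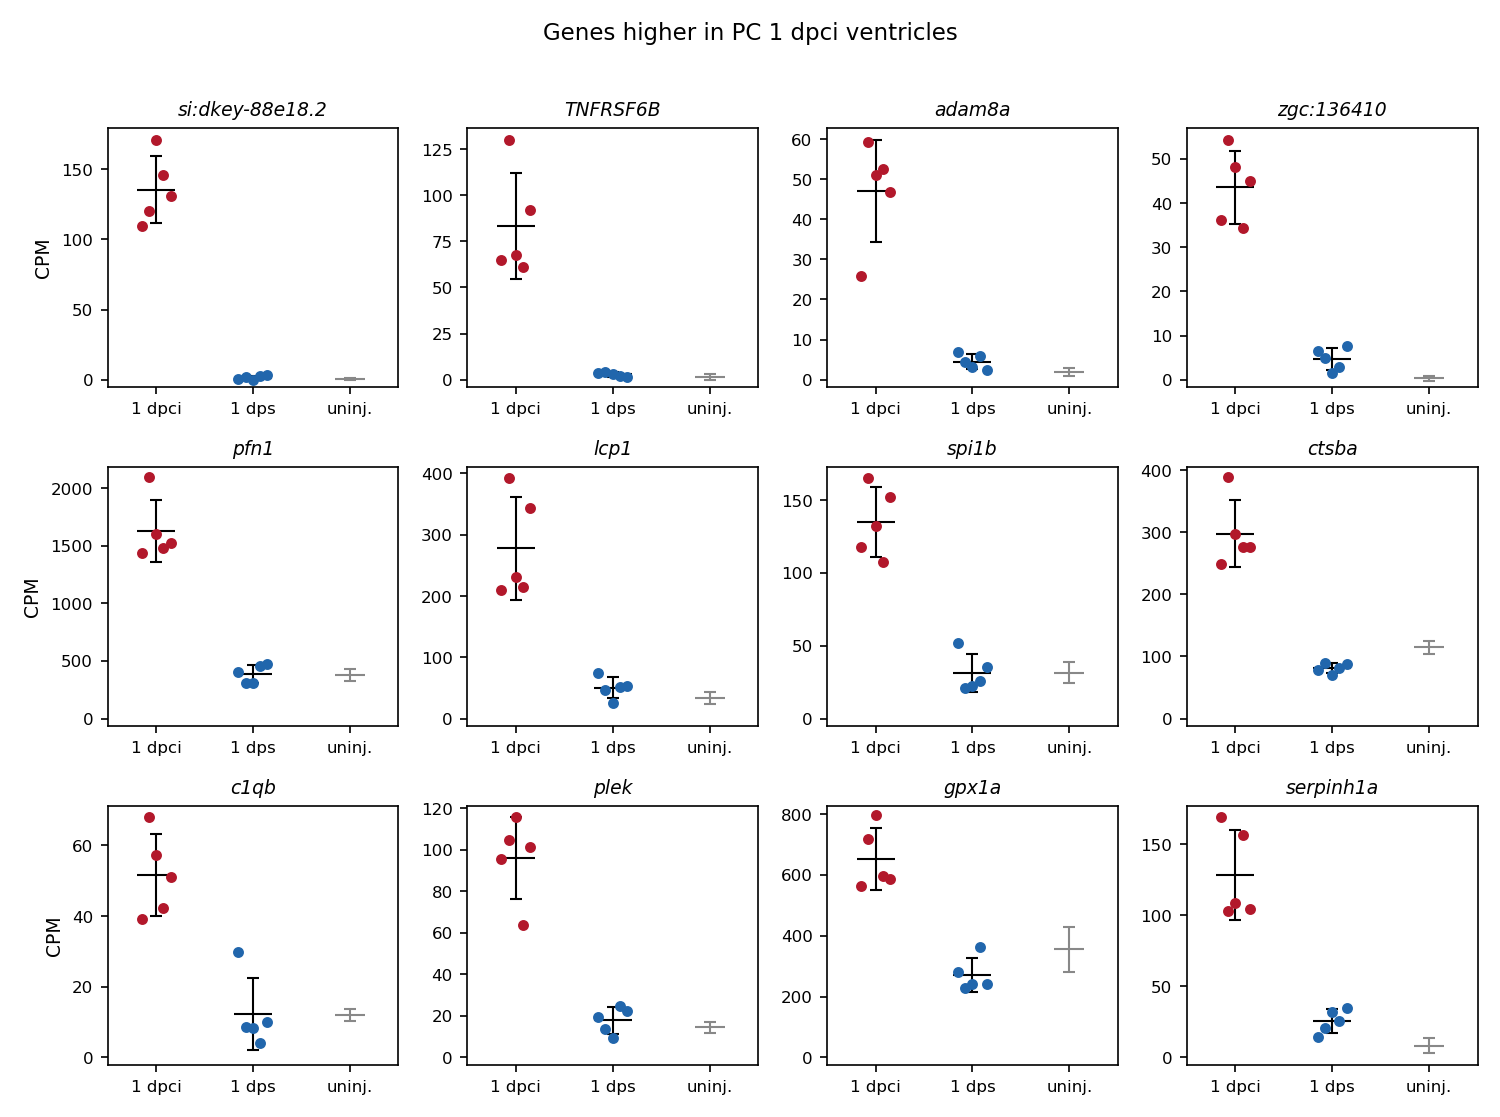
CPM of 12 genes that were higher in PC 1 dpci than in PC 1 dps ventricles. Points are single ventricles (5 per group), bars are mean ± SD, and the grey bar is the mean ± SD of 3 uninjured PC ventricles. No injured ventricle overlaps a sham ventricle in any panel, and PC 1 dps replicate 1 is the highest sham ventricle for c1qb at 29.9 CPM.

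Neutrophil and macrophage genes had the highest median change of the 27 lists examined. Of 69 members tested, 11 rose (0.794% of all genes did), 1 fell and 57 were not called. Their median log2 fold change was 0.92, against 0.002 over all genes. Without the factor 34 rose (2.66% of all genes did) and 1 fell (1.49% of all genes did). The actin-bundling leukocyte protein lcp1 (L-plastin) had 209, 392, 231, 215 and 343 CPM in PC 1 dpci ventricles, against 74.3, 46.3, 26, 51.7 and 53.9 CPM in PC 1 dps ventricles (log2 fold change 1.41 ± 0.28, adjusted p = 0.00082). The myeloid transcription factor spi1b (PU.1) had 118, 166, 132, 107 and 152 CPM in PC 1 dpci ventricles, against 51.8, 21, 22.2, 25.5 and 35.4 CPM in PC 1 dps ventricles (log2 fold change 1.49 ± 0.31, adjusted p = 0.0012). The highest sham ventricle of both genes was replicate 1, and it lay well under the lowest injured ventricle. In whole ventricles, more cells of a type and more RNA per cell cannot be told apart, nor can fewer cells and less RNA per cell.

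The macrophage growth factor receptor csf1ra had 92.4, 100.3, 143, 88.1 and 89.8 CPM in PC 1 dpci ventricles, against 72.8, 21.6, 29, 30.3 and 30.8 CPM in PC 1 dps ventricles (log2 fold change 1.09 ± 0.27, adjusted p = 0.012). Its call fell under the 2-fold limit without PC 1 dpci replicate 3 (log2 0.97) or PC 1 dps replicate 2 (log2 0.97), and the gene overlaps pdgfrb on its own strand. Csf1ra was chosen after its values were seen. The single member that fell, mfap4, had 19.6, 32.9, 41.1, 51.6 and 41.1 CPM in PC 1 dpci ventricles, against 106, 133, 48.1, 34.5 and 243 CPM in PC 1 dps ventricles (log2 fold change -2.29 ± 0.53, adjusted p = 0.0066). In zebrafish mfap4 marks macrophages. The gene is 1 of 9 genes with that symbol here, and its call was lost without PC 1 dps replicate 5 (adjusted p = 0.0541). Among the uncalled members, csf1rb, stab1 and cd74a had negative log2 fold changes of -0.696 ± 0.506, -1.125 ± 0.383 and -0.65 ± 0.278 (adjusted p 0.626, 0.103 and 0.247). Mean CPM was above sham in 55 of all 69 members tested (8658 of 18763 over all genes tested). A positive fitted change was found for 58 of the 69 (9405 of 18763 over all genes tested). Some of the 58, mpx and timd4 among them, had no read in any of the 10 libraries, so their sign says nothing about injury.

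Other genes known from leukocytes, chosen after their values were seen, rose too. The CD53-like gene zgc:64051 had 58.3, 115, 81.4, 63.1 and 73.9 CPM in PC 1 dpci ventricles, against 10.47, 4.94, 5.35, 11.3 and 3.85 CPM in PC 1 dps ventricles (log2 fold change 2.28 ± 0.38, adjusted p = 4.6e-05). The leukotriene B4 receptor gene ltb4r had 14.5, 27.4, 17, 15.6 and 25.3 CPM in PC 1 dpci ventricles, against 0.997, 1.23, 0, 5.94 and 1.54 CPM in PC 1 dps ventricles (log2 fold change 2.46 ± 0.54, adjusted p = 0.0032). The small GTPase rac2 of leukocytes averaged 409.7 ± 83.6 CPM in PC 1 dpci and 144 ± 34.6 CPM in PC 1 dps ventricles (log2 fold change 1.05 ± 0.26, adjusted p = 0.011). The fold of rac2 fell just under the limit without PC 1 dps replicate 2 (log2 0.99). TLR5, the receptor for bacterial flagellin, had 1.03, 8.22, 15.8, 1.04 and 6.55 CPM in injured ventricles and no read in any sham ventricle, which made it at least 3.35-fold higher (adjusted p = 0.012). Without PC 1 dps replicate 1 its adjusted p was 0.0548.

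Proteases that clear tissue formed the list with the most increases: 12 of 67 metalloproteinases, inhibitors and cathepsins tested rose (0.794% of all genes did) and none fell, with a median log2 fold change of 0.20 over the list. Of the 12, 7 were cathepsins, which digest protein in lysosomes. Cathepsin L (ctsla) had 41.8, 98.7, 58.2, 49.5 and 52.4 CPM in PC 1 dpci ventricles, against 11, 11.7, 9.17, 6.54 and 15.4 CPM in PC 1 dps ventricles (log2 fold change 2.22 ± 0.36, adjusted p = 3.4e-05). Cathepsin B (ctsba) had 248, 389.7, 297, 277 and 277 CPM in PC 1 dpci ventricles, against 78.8, 88.9, 70.29, 80.8 and 87.8 CPM in PC 1 dps ventricles (log2 fold change 1.28 ± 0.23, adjusted p = 0.00017). The lowest injured ventricle of ctsba lay well above the highest sham ventricle, and the groups of ctsla did not overlap either. Cathepsin A (ctsa) averaged 262 ± 55.3 CPM in PC 1 dpci and 79.4 ± 13.5 CPM in PC 1 dps ventricles (log2 fold change 1.26 ± 0.25, adjusted p = 0.00083). The collagen-degrading cathepsin K (ctsk) averaged 252 ± 51.2 CPM in PC 1 dpci and 84.4 ± 23 CPM in PC 1 dps ventricles (log2 fold change 1.15 ± 0.23, adjusted p = 0.00084). Cathepsin D (ctsd) averaged 279 ± 72.5 CPM in PC 1 dpci and 56.2 ± 10.6 CPM in PC 1 dps ventricles (log2 fold change 1.47 ± 0.36, adjusted p = 0.012). Cathepsin Z (ctsz), like ctsd chosen after its values were seen, averaged 68.6 ± 14.8 CPM in PC 1 dpci and 8.73 ± 4.14 CPM in PC 1 dps ventricles (log2 fold change 1.62 ± 0.45, adjusted p = 0.031). The call of ctsz, 1 of 4 genes with its symbol, was lost without PC 1 dpci replicate 1 (adjusted p = 0.227), PC 1 dps replicate 1 (0.136) or PC 1 dps replicate 4 (0.108).

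Besides adam8a and plaua, the metalloproteinases mmp14a, which sits in the cell membrane, and mmp13a, a collagenase, rose (both chosen after their values were seen). The first had 45.9, 67.4, 84.8, 85 and 53.3 CPM in PC 1 dpci ventricles, against 17.4, 11.11, 9.93, 20.2 and 13.1 CPM in PC 1 dps ventricles (log2 fold change 1.47 ± 0.30, adjusted p = 0.0016). The second had 22.7, 47.7, 83.1, 44.8 and 55.6 CPM in PC 1 dpci ventricles, against 12, 5.55, 7.64, 16.6 and 10 CPM in PC 1 dps ventricles (log2 fold change 2.29 ± 0.59, adjusted p = 0.018). It lost its call without any of 3 single libraries (adjusted p 0.0515 to 0.0579): PC 1 dpci replicate 3, PC 1 dps replicate 1 and PC 1 dps replicate 2.

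Of 91 extracellular matrix genes tested, 1 rose (0.794% of all genes did) and 3 fell (0.624% of all genes did). Their median log2 fold change was -0.17. The collagen chaperone serpinh1a (Hsp47) rose, with 169, 103.04, 109, 156 and 104 CPM in PC 1 dpci ventricles, against 14.5, 20.4, 32.1, 25.5 and 34.7 CPM in PC 1 dps ventricles (log2 fold change 1.95 ± 0.33, adjusted p = 4.6e-05). It was also the single chaperone called among 88 tested, where 1.42% of all genes were called. Basement membrane collagen col4a1 fell, with 46.5, 49.3, 58.2, 95.9 and 68.3 CPM in PC 1 dpci ventricles, against 119, 96.9, 121, 165 and 119 CPM in PC 1 dps ventricles (log2 fold change -1.13 ± 0.22, adjusted p = 0.00055). Without the factor its log2 fold change was -0.96, under the 2-fold limit. The collagen cross-linking enzyme loxl2b and fibrillin FBN1 fell too. The first had 3.74 to 10.4 CPM in PC 1 dpci and 9.17 to 24.7 CPM in PC 1 dps ventricles (log2 fold change -1.43 ± 0.33, adjusted p = 0.0065). The second had 1.87 to 4.65 CPM in PC 1 dpci and 6.79 to 14.9 CPM in PC 1 dps ventricles (log2 fold change -1.72 ± 0.43, adjusted p = 0.012), and FBN1 lost its call without PC 1 dps replicate 4 (adjusted p = 0.0563). TINAGL1, a matrix protein of basement membranes chosen after its values were seen, rose in contrast, with 93.4, 81.7, 70.21, 108 and 89.3 CPM in PC 1 dpci ventricles, against 22.4, 29.6, 26.7, 29.7 and 36.2 CPM in PC 1 dps ventricles (log2 fold change 1.70 ± 0.25, adjusted p = 3.3e-06).

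Complement and acute phase genes went both ways. Of 40 tested, 4 rose (0.794% of all genes did), c1qa, c1qb and serpinh1a among them. The 2 that fell were hp and c3a.1 (0.624% of all genes fell), and the median log2 fold change was -0.41. Of the C1q chains, which start the classical complement pathway and are made by macrophages, c1qa and c1qb rose, and c1qc was not called (log2 fold change 0.81 ± 0.33, adjusted p = 0.207). C1qb had 39.2 to 68 CPM in PC 1 dpci and 4.16 to 29.9 CPM in PC 1 dps ventricles (log2 fold change 1.21 ± 0.30, adjusted p = 0.012). C1qa had 27.6 to 36.6 CPM in PC 1 dpci and 3.06 to 17.4 CPM in PC 1 dps ventricles (log2 fold change 1.37 ± 0.36, adjusted p = 0.022). Without PC 1 dps replicate 4 their adjusted p-values were 0.0925 and 0.0914, and c1qa was also lost without PC 1 dpci replicate 1 (0.0604) or PC 1 dps replicate 3 (0.057). Haptoglobin (hp), which binds free haemoglobin, had 39.2, 30.1, 71, 36 and 57.5 CPM in PC 1 dpci ventricles, against 133, 78.4, 112, 79.6 and 182 CPM in PC 1 dps ventricles (log2 fold change -1.59 ± 0.44, adjusted p = 0.032). Both groups stood above the uninjured level of 5.81 ± 5.82 CPM, so the sham ventricles were the highest of the 3 groups. The call of hp was lost without any of 5 libraries (PC 1 dpci replicates 1, 2 and 4 and PC 1 dps replicates 1 and 5, adjusted p 0.0549 to 0.0936). Complement component 3 (c3a.1), chosen after its values were seen, had 7.23, 19.2, 22.4, 15.1 and 26.2 CPM in PC 1 dpci ventricles, against 40.9, 29.6, 26, 19 and 57.8 CPM in PC 1 dps ventricles (log2 fold change -1.53 ± 0.43, adjusted p = 0.034). Its groups overlapped, and leaving out any of the same 5 libraries ended its call (adjusted p 0.0599 to 0.153). Its call was also lost without the factor (log2 fold change -0.93). Summed liver markers reached 32.4 CPM in PC 1 dps replicate 5, the library with the highest hp and c3a.1. They held 1.19 to 4.32 CPM in the other PC 1 dps libraries and 1.64 to 3.65 CPM in PC 1 dpci. The part of liver RNA in the values of hp and c3a.1 was not tested. The thrombin receptor f2r, chosen after its values were seen, had 55.8, 104, 49.9, 58.9 and 128 CPM in PC 1 dpci ventricles, against 20.4, 21, 17.6, 17.2 and 23.1 CPM in PC 1 dps ventricles (log2 fold change 1.55 ± 0.32, adjusted p = 0.0012).

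Each of the 4 lists of inflammatory signalling had 1 member called with the factor, where 1.42% of all genes were. Without the factor 7 of 56 chemokines and interleukins rose (2.66% of all genes did) and 1 fell (1.49% of all genes did). Without it 4 of 43 TNF, Toll-like receptor and NF-kB genes, 3 of 26 IL-6 and IL-11 genes and 4 of 57 interferon genes rose, and none fell. With the factor none of the 56 chemokines and interleukins tested rose, and 1 fell: cxcl14 had 149.7, 129, 218, 141 and 162 CPM in PC 1 dpci ventricles, against 480.1, 390.0, 306, 297 and 363 CPM in PC 1 dps ventricles (log2 fold change -1.24 ± 0.28, adjusted p = 0.0039). Of 43 genes of the TNF, Toll-like receptor and NF-kB pathways, 1 rose, the NF-kB inhibitor nfkbiaa, with 87.8, 161, 125, 56.8 and 146 CPM in PC 1 dpci ventricles, against 48.4, 29, 33.6, 32.7 and 40.1 CPM in PC 1 dps ventricles (log2 fold change 1.28 ± 0.35, adjusted p = 0.026). It was lost without PC 1 dps replicate 2 (adjusted p = 0.0645) or 4 (0.073). TLR5 and TNFRSF6B, both called as higher and described above, were not members of this list. Of 26 genes of IL-6 and IL-11 signalling, 1 rose, the cytokine il11a. It had 12.9, 25.2, 9.14, 8.86 and 10.3 CPM in PC 1 dpci ventricles, against 2.49, 3.7, 8.4, 0.594 and 3.85 CPM in PC 1 dps ventricles (log2 fold change 2.33 ± 0.68, adjusted p = 0.0468), where the groups did not overlap but came close, and its call was lost without any of 6 single libraries (PC 1 dpci replicates 1 and 2 and PC 1 dps replicates 1, 2, 4 and 5, adjusted p 0.0706 to 0.147). Of 57 interferon response and antigen presentation genes, 1 fell, mhc1uba, an antigen-presenting molecule and 1 of 8 genes with its symbol. It had 0, 0.548, 1.25, 0 and 0.935 CPM in PC 1 dpci ventricles, against 33.9, 1.85, 1.53, 1.19 and 0.77 CPM in PC 1 dps ventricles (adjusted p = 0.016). PC 1 dps replicate 1 alone held more than 3 reads, and without it the adjusted p was 0.709.

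Of 31 immediate early genes tested, 2 rose (0.794% of all genes did) and 1 fell (0.624% of all genes did). Both genes that rose encode FOS-like subunits of the AP-1 transcription factor. The gene fosl2 had 49, 133, 68.1, 56.3 and 85.1 CPM in PC 1 dpci ventricles, against 20.9, 19.1, 16.8, 23.8 and 13.9 CPM in PC 1 dps ventricles (log2 fold change 1.44 ± 0.36, adjusted p = 0.012). Fosl1b had 9.29, 25.2, 10.4, 17.7 and 13.6 CPM in PC 1 dpci ventricles, against 2.49, 0, 0, 4.16 and 2.31 CPM in PC 1 dps ventricles (log2 fold change 2.59 ± 0.54, adjusted p = 0.0017). The gene that fell, csrnp1b, had 8.26, 7.13, 7.48, 5.73 and 4.68 CPM in PC 1 dpci ventricles, against 22.9, 14.8, 13, 11.9 and 9.24 CPM in PC 1 dps ventricles (log2 fold change -1.19 ± 0.33, adjusted p = 0.031). It lost its call without PC 1 dpci replicate 5 (adjusted p = 0.0672), PC 1 dps replicate 1 (0.245) or PC 1 dps replicate 2 (0.0529).

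Profilin (pfn1), which feeds actin monomers to growing filaments, had 1435, 2094, 1604, 1476 and 1522 CPM in PC 1 dpci ventricles, against 404, 311, 307, 452 and 473 CPM in PC 1 dps ventricles (log2 fold change 1.39 ± 0.25, adjusted p = 0.00021), a CPM ratio of 4.18. It belongs to the list of annexins, S100 proteins, galectins, intermediate filaments and related genes. Of 58 of these tested, 4 rose (0.794% of all genes did) and none fell (median log2 fold change 0.46). Keratin 18 (krt18b) had 689, 749.8, 691, 570.2 and 500.3 CPM in PC 1 dpci ventricles, against 285, 188, 177, 169.9 and 305 CPM in PC 1 dps ventricles (log2 fold change 1.19 ± 0.26, adjusted p = 0.0032). The S100 gene s100w had 426, 214, 304, 333 and 183 CPM in PC 1 dpci ventricles, against 119.6, 131, 242, 137 and 233 CPM in PC 1 dps ventricles (log2 fold change 1.03 ± 0.23, adjusted p = 0.0046), with groups that overlapped. It fell under the 2-fold limit or lost its call without any of 6 single libraries (PC 1 dpci replicates 1, 3 and 4 and PC 1 dps replicates 1, 2 and 4). Without the factor its log2 fold change was 0.76. Arpc4l and marcksl1a, also of the cytoskeleton, were chosen after their values were seen. The subunit arpc4l of the complex that branches actin filaments had 165, 167, 176, 114 and 105 CPM in PC 1 dpci ventricles, against 39.4, 50, 71.8, 49.3 and 65.5 CPM in PC 1 dps ventricles (log2 fold change 1.35 ± 0.21, adjusted p = 2.1e-05). It overlaps tada3l on the other strand. The actin-binding protein marcksl1a had 165, 259, 172, 223 and 220.2 CPM in PC 1 dpci ventricles, against 48.4, 27.15, 33.6, 39.8 and 56.2 CPM in PC 1 dps ventricles (log2 fold change 1.78 ± 0.27, adjusted p = 6.5e-06).

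Antioxidant and iron genes rose in part. Of 73 antioxidant and glutathione genes tested, 4 rose (0.794% of all genes did) and 1 fell (0.624% of all genes did). Their median log2 fold change was 0.26. Both copies of glutathione peroxidase 1, an enzyme that reduces hydrogen peroxide, rose. The copy gpx1b had 153, 67.4, 109, 84.4 and 61.7 CPM in PC 1 dpci ventricles, against 24.9, 25.9, 29.8, 25 and 30 CPM in PC 1 dps ventricles (log2 fold change 1.98 ± 0.32, adjusted p = 2.5e-05). The copy gpx1a had 562, 718, 799, 596 and 587 CPM in PC 1 dpci ventricles, against 280.2, 228, 243, 364 and 241 CPM in PC 1 dps ventricles (log2 fold change 1.16 ± 0.23, adjusted p = 0.00069). Thioredoxin (TXN) averaged 44.5 ± 9.09 CPM in PC 1 dpci and 11.5 ± 4.32 CPM in PC 1 dps ventricles (log2 fold change 1.36 ± 0.36, adjusted p = 0.022). It lost its call without PC 1 dps replicate 2 (adjusted p = 0.0837). The haem-degrading enzyme hmox1a, chosen after its values were seen, had 2.58, 6.03, 4.99, 8.34 and 15 CPM in PC 1 dpci ventricles, against 0.997, 0, 0, 1.19 and 0.77 CPM in PC 1 dps ventricles (adjusted p = 0.0498). The sham values stood for at most 2 reads per library, and the call was lost without any of 6 single libraries (PC 1 dpci replicate 5 and each PC 1 dps replicate, adjusted p 0.0714 to 0.122). Ferritin fthl31, which stores iron and is 1 of 4 genes with its symbol, was also chosen after its values were seen and had 798, 1257, 708, 875 and 1022 CPM in PC 1 dpci ventricles, against 282, 230.2, 456, 453 and 519 CPM in PC 1 dps ventricles (log2 fold change 1.42 ± 0.27, adjusted p = 0.00041). Extracellular superoxide dismutase sod3b fell, with 5.68, 4.93, 11.2, 8.86 and 8.88 CPM in PC 1 dpci ventricles, against 32.9, 22.8, 33.6, 27.3 and 26.2 CPM in PC 1 dps ventricles (log2 fold change -1.48 ± 0.36, adjusted p = 0.0096). It lost its call without PC 1 dpci replicate 1 (0.0632) or PC 1 dps replicate 1 (0.0569). Summed erythrocyte markers ranged from 3483 to 7507 CPM in PC 1 dpci and from 1475 to 6409 CPM in PC 1 dps, and their part in these results was not tested.

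The list with the most decreases was that of endothelial genes. Of 81 genes of hypoxia, angiogenesis and endothelium tested, 9 fell (0.624% of all genes did) and 2 rose (0.794% of all genes did). Their median log2 fold change was -0.38. The fenestral diaphragm protein plvapb had 91.4, 32.3, 59.8, 77.7 and 81.4 CPM in PC 1 dpci ventricles, against 258, 259, 354, 195 and 296 CPM in PC 1 dps ventricles (log2 fold change -1.45 ± 0.29, adjusted p = 0.00082), and overlaps gtpbp3 on the other strand. The clotting protein vwf had 15.5, 13.2, 25.8, 19.3 and 44 CPM in PC 1 dpci ventricles, against 58.3, 53.1, 46.6, 81.4 and 50.8 CPM in PC 1 dps ventricles (log2 fold change -1.43 ± 0.40, adjusted p = 0.034). The receptor kinase gene kdrl had 12.4 to 29.9 CPM in PC 1 dpci and 10.7 to 49.4 CPM in PC 1 dps ventricles (log2 fold change -1.33 ± 0.36, adjusted p = 0.026), and its groups overlapped through PC 1 dps replicate 3, the lowest of the 10 libraries. The receptor kinase gene tie1 had 9.38 to 13.7 CPM in PC 1 dpci and 15.3 to 37.4 CPM in PC 1 dps ventricles (log2 fold change -1.25 ± 0.29, adjusted p = 0.0074) with no overlap. Vwf, kdrl and tie1 were chosen after their values were seen. Without PC 1 dps replicate 1 the adjusted p-values of vwf, kdrl and tie1 were 0.0746, 0.0958 and 0.095. The call of vwf was also lost without PC 1 dpci replicate 1, 2 or 4 or PC 1 dps replicate 4 (adjusted p up to 0.13). That of kdrl was also lost without PC 1 dpci replicate 1 or 3 or PC 1 dps replicate 2 (adjusted p up to 0.104), and without the factor (log2 fold change -0.83).

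Of the Notch genes on the same list, dll4, notch1b, her6 and her9 fell. Notch1a, notch3, jag1b, jag2b, dlc, hey1, hey2 and heyl were not called, with log2 fold changes from -1.56 ± 0.53 for hey1 (adjusted p = 0.102) to 0.70 ± 1.42 for dlc (adjusted p = 0.997). Another gene with the symbol HEYL had no read in any of the 10 libraries. The ligand dll4 had 5.16, 7.13, 6.65, 4.69 and 6.08 CPM in PC 1 dpci ventricles, against 34.9, 33.3, 24.4, 19 and 32.4 CPM in PC 1 dps ventricles (log2 fold change -1.63 ± 0.40, adjusted p = 0.012). The receptor notch1b had 104, 105, 124, 125 and 114 CPM in PC 1 dpci ventricles, against 342, 290.0, 180.3, 249.6 and 234 CPM in PC 1 dps ventricles (log2 fold change -1.26 ± 0.25, adjusted p = 0.00082). Among the targets, her6 had 15.5, 14.8, 19.9, 26.6 and 17.8 CPM in PC 1 dpci ventricles, against 93.2, 89.5, 105, 56.4 and 78.6 CPM in PC 1 dps ventricles (log2 fold change -1.84 ± 0.29, adjusted p = 2.5e-05). The lowest sham ventricle of her6 was still well above the highest injured one. Her9, another gene of that family, had 1.64 to 3.74 CPM in PC 1 dpci and 5.35 to 16.5 CPM in PC 1 dps ventricles (log2 fold change -1.81 ± 0.47, adjusted p = 0.018). Nrarpa, which dampens Notch signalling and is not on the list, had 8.77 to 16 CPM in PC 1 dpci and 31.4 to 35.7 CPM in PC 1 dps ventricles (log2 fold change -1.10 ± 0.24, adjusted p = 0.0025). Dll4, her9 and nrarpa were chosen after their values were seen. Without PC 1 dpci replicate 1 the adjusted p-values of dll4 and her9 were 0.0652 and 0.0582, and without PC 1 dps replicate 1 they were 0.0801 and 0.15. The hypoxia-inducible factor epas1b, chosen likewise, had 47, 66.9, 44.9, 80.3 and 64.1 CPM in PC 1 dpci ventricles, against 149.6, 123, 97, 122 and 103.2 CPM in PC 1 dps ventricles (log2 fold change -1.16 ± 0.26, adjusted p = 0.0047). Without the RUVg factor its log2 fold change was -0.98, under the 2-fold limit.

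The adhesion molecule sele and the receptor nrp1a rose against the direction of their list. Nrp1a, a co-receptor for vascular growth factors named here after its value was seen, had a log2 fold change of 1.15 ± 0.32 (adjusted p = 0.0317). E-selectin is shown by activated endothelium and catches leukocytes, and it had 58.3, 146, 152, 39.6 and 111 CPM in PC 1 dpci ventricles, against 16.5, 21, 17.6, 25.5 and 10.8 CPM in PC 1 dps ventricles (log2 fold change 2.22 ± 0.43, adjusted p = 0.00068). Summed over 14 endothelial markers, PC 1 dpci ventricles held 239.5 to 430.2 CPM and PC 1 dps ventricles 649 to 752 CPM, without overlap. Of the 14, 4 were called as lower (0.624% of all genes were). The part of this lower sum in the fall of dll4, notch1b, her6 and her9 was not tested.

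**Figure D2:**
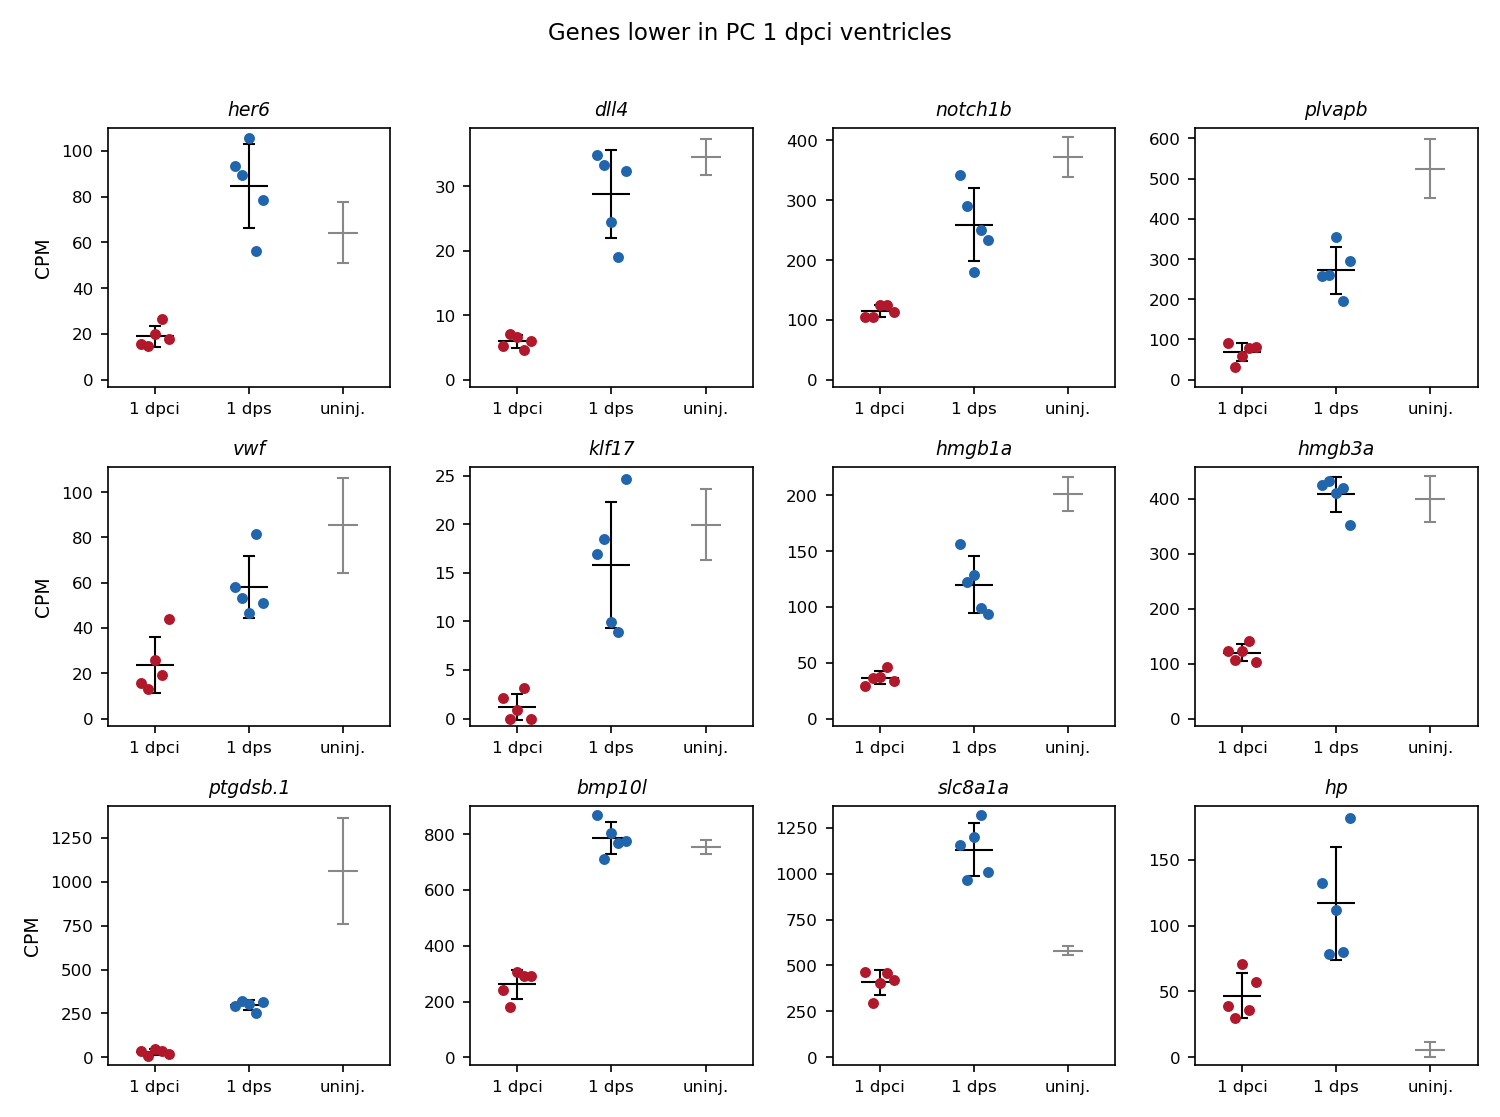
CPM of 12 genes that were lower in PC 1 dpci than in PC 1 dps ventricles. Points are single ventricles (5 per group), bars are mean ± SD, and the grey bar is the mean ± SD of 3 uninjured PC ventricles. The sham means of notch1b, plvapb, hmgb1a and ptgdsb.1 lie below the uninjured means, while those of hp and slc8a1a lie above them.

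Both HMGB genes called, which encode abundant chromatin proteins that bend DNA, fell with the smallest p-values among the named genes. The gene hmgb3a had 123, 107, 123, 141 and 103.3 CPM in PC 1 dpci ventricles, against 425, 431, 410.3, 420.1 and 353 CPM in PC 1 dps ventricles (log2 fold change -1.69 ± 0.16, adjusted p = 1.9e-13). The gene hmgb1a (chromosome 20, 12790558 to 12797052) had 29.4, 36.7, 37, 45.9 and 33.7 CPM in PC 1 dpci ventricles, against 157, 122, 128, 98.6 and 94 CPM in PC 1 dps ventricles (log2 fold change -1.85 ± 0.24, adjusted p = 3.9e-08) and overlaps katnal1 on its own strand. In uninjured ventricles they averaged 399 ± 42 CPM and 201 ± 15 CPM.

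The 12 genes with the largest decreases also held ptgdsb.1, a lipocalin of the prostaglandin D synthase family (chromosome 3, 27459238 to 27471067). It had 37.7, 8.22, 47.4, 33.9 and 21 CPM in PC 1 dpci ventricles, against 291, 323, 303, 250.2 and 317 CPM in PC 1 dps ventricles (log2 fold change -2.35 ± 0.45, adjusted p = 0.00059). Uninjured ventricles were higher still, at 1063 ± 302 CPM, and the gene overlaps c8g and zfx. The Krüppel-like factor klf17 had 2.06, 0, 0.831, 3.13 and 0 CPM in PC 1 dpci ventricles, against 16.9, 18.5, 9.93, 8.91 and 24.7 CPM in PC 1 dps ventricles (log2 fold change -3.27 ± 0.69, adjusted p = 0.002), with no read in 2 of the injured ventricles. The enzyme hsd11b2, which inactivates cortisol, had 4.13, 5.48, 4.15, 17.2 and 10.8 CPM in PC 1 dpci ventricles, against 49.4, 53.7, 24.4, 30.3 and 40.1 CPM in PC 1 dps ventricles (log2 fold change -2.34 ± 0.42, adjusted p = 0.00015). The growth factor fgf8 had 2.06, 1.64, 0.415, 4.69 and 1.4 CPM in PC 1 dpci ventricles, against 18.9, 16, 12.2, 8.32 and 16.9 CPM in PC 1 dps ventricles (log2 fold change -2.50 ± 0.56, adjusted p = 0.0045), and in uninjured ventricles it averaged 3.04 ± 3.12 CPM, near the injured level.

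The matrix-associated gene abi3bpb, the planar polarity gene prickle1b and the homocysteine enzyme cbsb fell too, with log2 fold changes of -2.81 ± 0.60, -2.48 ± 0.48 and -2.24 ± 0.52. None of the 3 overlapped between the groups. The phosphatase regulator PPP1R27 (log2 fold change -2.16 ± 0.54, adjusted p = 0.012) and si:ch211-168f7.5 (log2 fold change -2.46 ± 0.60, adjusted p = 0.01) had groups that overlapped. Without PC 1 dps replicate 1 their adjusted p-values were 0.053 and 0.0589, and without PC 1 dps replicate 2 that of PPP1R27 was 0.0536.

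Heart muscle lists had 0 to 3 members called. None of 81 sarcomere genes tested was called, where 1.42% of all genes were, with a median log2 fold change of -0.37. Without the factor 8 of them were called as lower (1.49% of all genes were). Their member with the smallest p, the actin-capping gene capza1a, had 96.9 to 121 CPM in PC 1 dpci and 45.7 to 62.7 CPM in PC 1 dps ventricles (log2 fold change 0.73 ± 0.19, adjusted p = 0.021), under the 2-fold limit. The cardiomyocyte marker sum was lower in each injured ventricle than in each sham ventricle, and none of its 8 members tested was called. Of 45 genes of cardiac stress and dedifferentiation, 2 rose (0.794% of all genes did) and 1 fell (0.624% of all genes did). The LIM protein fhl2a had 1505, 626, 579, 859 and 756 CPM in PC 1 dpci ventricles, against 338, 438, 378, 541 and 428 CPM in PC 1 dps ventricles (log2 fold change 1.09 ± 0.27, adjusted p = 0.012) and averaged 132 ± 29.7 CPM in uninjured ventricles. It lost its call without PC 1 dpci replicate 1 (log2 0.73, adjusted p = 0.246) or PC 1 dps replicate 1 (0.0634). The stress gene ankrd1a had 0.516, 4.38, 5.82, 1.56 and 2.34 CPM in PC 1 dpci and no read in PC 1 dps ventricles, at least 1.5-fold higher (adjusted p = 0.027). This call did not hold without any of 4 single libraries (PC 1 dpci replicate 3 and PC 1 dps replicates 1, 2 and 4, adjusted p 0.0585 to 0.0887). The muscle gene txlnba fell, with 32.5, 15.3, 34.1, 47.4 and 37.9 CPM in PC 1 dpci ventricles, against 117, 119.7, 103.1, 117 and 77.8 CPM in PC 1 dps ventricles (log2 fold change -1.50 ± 0.27, adjusted p = 0.0002).

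Of 51 genes of calcium handling and ion channels, 1 fell (0.624% of all genes did). This gene, the sodium/calcium exchanger slc8a1a, which removes calcium from cardiomyocytes, had 463, 295, 402, 458 and 419 CPM in PC 1 dpci ventricles, against 1154, 964, 1199, 1318 and 1009 CPM in PC 1 dps ventricles (log2 fold change -1.07 ± 0.23, adjusted p = 0.0018). Uninjured ventricles averaged 581 ± 26.4 CPM, so sham ventricles were the highest group. Without PC 1 dps replicate 4 its log2 fold change was -0.99. The heart-specific growth factor bmp10l, chosen after its values were seen, had 243, 181, 305, 291 and 289.9 CPM in PC 1 dpci ventricles, against 867, 711, 803, 766 and 775 CPM in PC 1 dps ventricles (log2 fold change -1.09 ± 0.24, adjusted p = 0.0033). It came just under the 2-fold limit without PC 1 dpci replicate 1 (log2 -0.997) or PC 1 dps replicate 1 (-0.97). Midkine (mdkb), the called member of 33 epicardial and fibroblast genes (1.42% of all genes were called), had 104, 90.4, 101, 101 and 109 CPM in PC 1 dpci ventricles, against 329, 257, 332, 250.2 and 280.4 CPM in PC 1 dps ventricles (log2 fold change -1.24 ± 0.21, adjusted p = 9.4e-05).

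Each of the 4 metabolic lists had 1 or 2 members called, where 1.42% of all genes were, and nothing is read from counts this small. Of 40 genes on the TCA cycle list, 1 fell, mdh1ab. It encodes the cytosolic malate dehydrogenase, which the study places in the malate-aspartate shuttle, so no enzyme of the cycle itself was called. Mdh1ab averaged 173 ± 38.63 CPM in PC 1 dpci and 302 ± 65.3 CPM in PC 1 dps ventricles (log2 fold change -1.21 ± 0.32, adjusted p = 0.022). Of 87 respiratory chain genes, 1 fell: cyc1, a subunit of complex III, averaged 3.63 ± 1.19 CPM in PC 1 dpci and 13.8 ± 8.49 CPM in PC 1 dps ventricles (log2 fold change -2.40 ± 0.63, adjusted p = 0.02). It overlaps ywhabb. The groups overlapped in both genes, and each lost its call without any of 3 libraries. For mdh1ab these were PC 1 dpci replicate 1 and PC 1 dps replicates 2 and 4 (adjusted p 0.0522 to 0.0721). For cyc1 they were PC 1 dpci replicate 1 and PC 1 dps replicates 1 and 2 (0.0524 to 0.0765). Mdh1ab also lost its call without the factor (log2 fold change -0.81). The median log2 fold change of the respiratory chain list was -0.21 with the factor and -0.63 without it. Mean CPM was above sham in 2 of its 87 genes (8658 of 18763 over all genes tested). With the factor 24 of the 87 had a positive change (9405 of 18763). On the other lists mean CPM was above sham in 8 of 40 TCA cycle, 18 of 61 glycolysis and 15 of 77 fatty acid genes. What lowered these means was not tested. Of 61 glycolysis and lactate genes, 2 fell and none rose. The monocarboxylate transporter gene slc16a9a had 9.81, 10.4, 7.48, 11.5 and 6.08 CPM in PC 1 dpci ventricles, against 45.9, 27.8, 52, 39.8 and 25.4 CPM in PC 1 dps ventricles (log2 fold change -1.64 ± 0.31, adjusted p = 0.00041). Pfkfb4a, which sets the rate of glycolysis, had 95, 97, 78.1, 102 and 99.6 CPM in PC 1 dpci ventricles, against 289, 279, 301, 268 and 236 CPM in PC 1 dps ventricles (log2 fold change -1.25 ± 0.31, adjusted p = 0.012). Of 77 fatty acid genes, PPARG rose and pparaa fell. The receptor pparaa, which drives fatty acid oxidation, had 7.23, 11, 10.8, 6.78 and 7.01 CPM in PC 1 dpci ventricles, against 32.4, 37, 19.1, 17.8 and 24.7 CPM in PC 1 dps ventricles (log2 fold change -1.56 ± 0.38, adjusted p = 0.0091). Without PC 1 dps replicate 1 the adjusted p-values of pfkfb4a and pparaa were 0.0536 and 0.0538.

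Of 73 clock and glucocorticoid genes, glula rose (0.794% of all genes did) and per2 and hsd11b2 fell (0.624% of all genes did). Glutamine synthetase (glula) had 40.7 to 47 CPM in PC 1 dpci and 9.87 to 20.4 CPM in PC 1 dps ventricles (log2 fold change 1.35 ± 0.37, adjusted p = 0.029). The clock gene per2 had 0.831 to 3.65 CPM in PC 1 dpci and 6.11 to 9.26 CPM in PC 1 dps ventricles (log2 fold change -1.87 ± 0.51, adjusted p = 0.03). Both were lost without single libraries. For glula these were PC 1 dpci replicate 1 and PC 1 dps replicates 2, 3 and 5 (adjusted p 0.0566 to 0.0893). For per2 they were PC 1 dpci replicates 1, 3 and 5 and PC 1 dps replicates 1, 2 and 4 (0.0543 to 0.0856).

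No member was called in 5 further lists, where 1.42% of all genes were. These were cell cycle (106 tested, median log2 fold change 0.39), ribosome (137, 0.33), Wnt, Fgf, Bmp and TGF-beta signalling (112, -0.20), proteasome and ubiquitin (47, 0.15) and cell death (44, -0.08). The cell cycle gene with the smallest p was the mitotic kinase aurkb, with 4.65, 6.03, 3.32, 4.17 and 5.14 CPM in PC 1 dpci ventricles, against 0, 1.23, 0, 0.594 and 0.77 CPM in PC 1 dps ventricles (adjusted p = 0.109). The groups of aurkb did not overlap, and the sham values stood for at most 2 reads. The members with the smallest p in the other lists were rpl29, tgfb1a, psmd12 and mcl1b, with log2 fold changes of 0.69 ± 0.19, 0.80 ± 0.24, 0.77 ± 0.19 and 0.82 ± 0.24, all under the 2-fold limit.

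**Figure D3:**
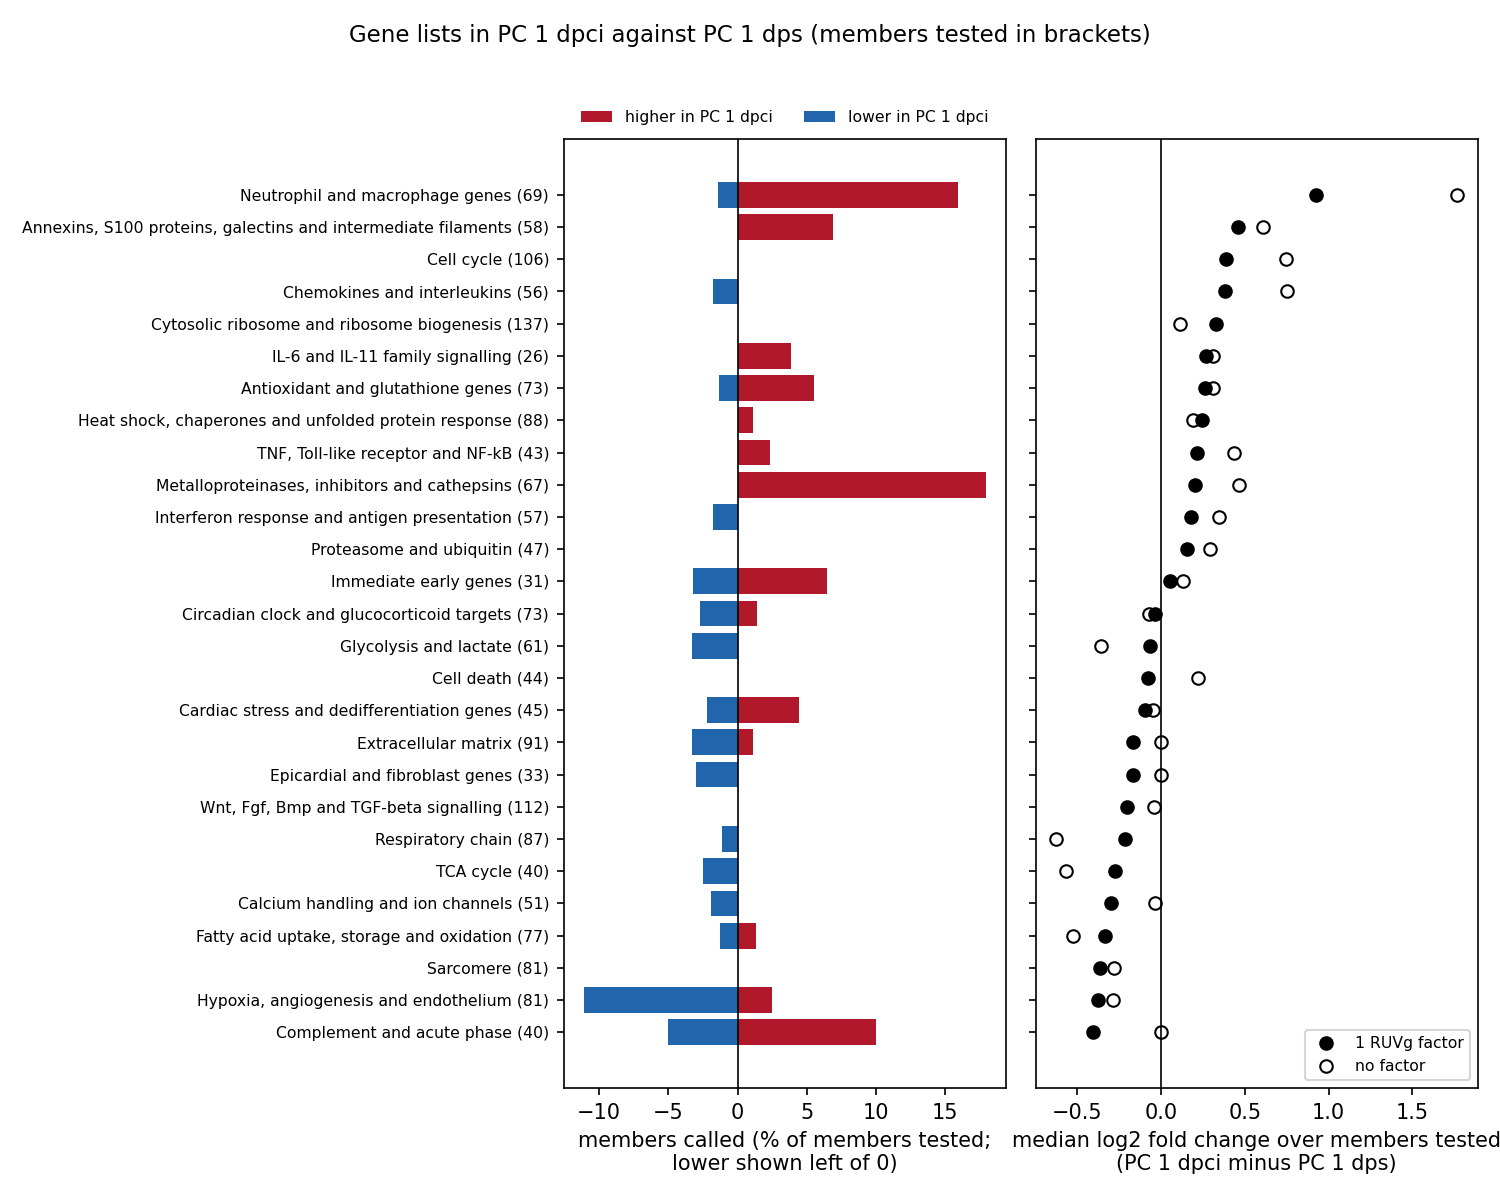
The 27 gene lists described in the text, with the number of members tested in brackets. Left, members called between PC 1 dpci and PC 1 dps as a percentage of those tested, with higher members right and lower members left of 0. Right, the median log2 fold change over all members tested, with the RUVg factor (filled) and without it (open). The neutrophil and macrophage list has the highest median, 0.92 with the factor and 1.77 without it.

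The summed CPM of markers differed between the groups for some of the cell types that a ventricle can hold, while most single markers were not called. The neutrophil list summed to 131 to 515 CPM in PC 1 dpci and 41.3 to 70.8 CPM in PC 1 dps. Of its 14 tested genes, 1 was called as higher (0.794% of all genes were), with a median log2 fold change of 0.96. In 3 of the 14, 1 copy each of mpx, LYZ and mmp9, there was no read in any of the 10 libraries. Other genes with the symbols LYZ and mmp9 had reads. The most abundant LYZ copy averaged 198 CPM in PC 1 dpci and 19.1 CPM in PC 1 dps ventricles and was not called (adjusted p = 0.398), and the other mmp9 copy averaged 17.5 CPM in PC 1 dpci and 4.75 CPM in PC 1 dps ventricles (adjusted p = 0.834). The macrophage list summed to 460.0 to 814 CPM in PC 1 dpci and 138 to 429.7 CPM in PC 1 dps. Of its 15 tested members, 3 were called as higher (0.794% of all genes were) and mfap4 as lower. In 4 of the 15, copies of MFAP4 and timd4, there was no read in any of the 10 libraries. The median log2 fold change of 0.18 was the fitted value of such a copy of MFAP4, and nothing is read from it. Thrombocyte markers reached 50.03 to 114 CPM in PC 1 dpci and 43.2 to 69.5 CPM in PC 1 dps, and their member gp9, a platelet adhesion receptor chosen after its values were seen, had 16.5, 10.4, 7.89, 2.61 and 6.08 CPM in PC 1 dpci ventricles, against 2.49, 1.85, 0.764, 2.97 and 1.54 CPM in PC 1 dps ventricles (log2 fold change 2.45 ± 0.71, adjusted p = 0.042). The call of gp9 was lost without any of 8 libraries, all but PC 1 dpci replicates 4 and 5 (adjusted p 0.0563 to 0.186). Lymphocyte, fibroblast and smooth muscle sums overlapped between the groups (for lymphocytes 30.4 to 55.3 CPM in PC 1 dpci and 29.8 to 36.3 CPM in PC 1 dps). Skeletal muscle markers were lower, at 2070.0 to 3348 CPM in PC 1 dpci against 3005 to 4550.0 CPM in PC 1 dps, with a small overlap. How far these marker sums account for the changes of single genes was not tested.

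**Figure D4:**
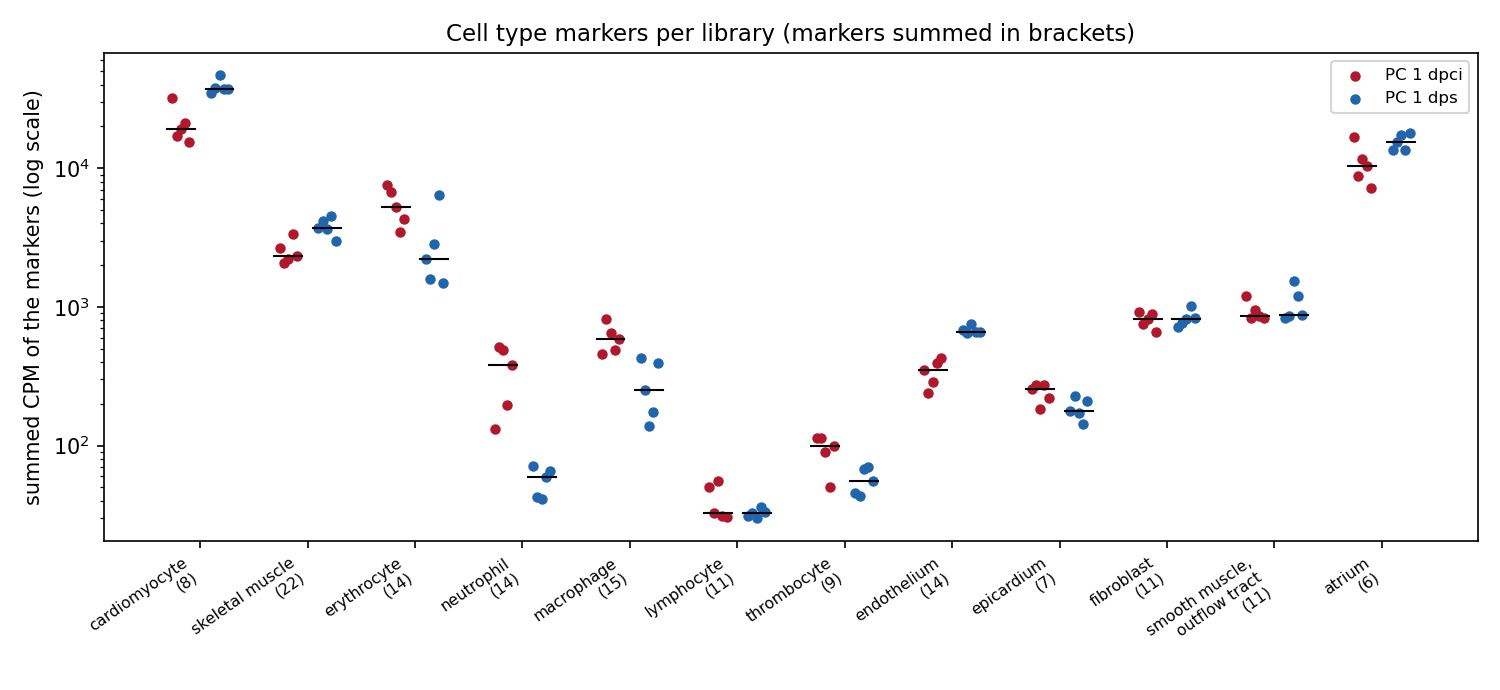
Summed CPM of 12 marker lists in each of the 5 PC 1 dpci and 5 PC 1 dps libraries, on a log scale, with a line at the median of the group and the number of markers tested in brackets. Neutrophil and macrophage sums are higher and cardiomyocyte and endothelial sums lower in every PC 1 dpci library than in every PC 1 dps library.

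In most of the genes called, the sham mean lay near the uninjured mean. Of the 149 genes called as higher, 125 averaged at least 10 CPM in the higher group, and in 100 of the 125 the sham mean lay within 2-fold of the uninjured mean. In 19 the sham mean was more than 2-fold above it, and 105 had an injured mean more than 2-fold above the uninjured one. Of 108 such genes called as lower, 90 had a sham mean within 2-fold of the uninjured mean and 67 had an injured mean more than 2-fold below it. In 12 of the 108, hp, fgf8 and mfap4 among them, the sham mean was more than 2-fold above the uninjured mean. For mfap4 the uninjured ventricles averaged 4.15 ± 2.17 CPM.

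The changes of single genes at 1 day were set against those of surface fish in a test of the difference between the populations. The tests against SF, 6 h and 3 days share the 10 ventricles of PC at 1 day. The first called 59 of 18763 genes (0.314%), 40 with a more positive change in PC (0.213%) and 19 with a more negative one (0.101%). In SF itself 219 genes were called at 1 day (1.17%). Of the 149 genes higher in PC, 14 were also called as higher in SF (0.357% of all genes were), and their median SF log2 fold change was 0.54. Of the 117 lower genes, 12 were also called as lower in SF (0.81% of all genes were), with a median of -0.52. No gene passed this test with replicate 1 left out of the injured and sham groups of SF at 1 day and of PC at 6 h, 1 day and 3 days. Leaving out a single library gave 37 genes without PC 1 dpci replicate 1, 38 without PC 1 dpci replicate 2 and 30 without PC 1 dps replicate 1 or 2.

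Among the named genes the difference with the smallest p was that of ptgdsb.1. In SF it averaged 12.8 ± 18.7 CPM at 1 dpci and 4.98 ± 1.34 CPM at 1 dps (log2 fold change 2.61 ± 0.60, adjusted p = 0.0059). The SF groups overlapped, at 1.15 to 46 CPM at 1 dpci and 3.22 to 6.89 CPM at 1 dps. The fitted changes pointed in opposite directions and differed by -4.95 ± 0.67 (adjusted p = 9.7e-07). This difference lost its call with replicate 1 left out of the groups compared (adjusted p = 0.0716). No single SF library was left out in turn, so how far the SF rise rests on 1 ventricle was not tested. The gene plek, a substrate of protein kinase C in platelets and leukocytes, had 95.5, 105, 116, 63.6 and 101 CPM in PC 1 dpci ventricles, against 19.4, 13.6, 9.17, 25 and 22.3 CPM in PC 1 dps ventricles (log2 fold change 1.75 ± 0.42, adjusted p = 0.0088). Its SF change was -1.23 ± 0.43 (adjusted p = 0.134), and the populations differed by 2.98 ± 0.53 (adjusted p = 0.0013). For gpx1a the PC change of 1.16 ± 0.23 stood against an SF change of -0.60 ± 0.23, a difference of 1.77 ± 0.29 (adjusted p = 0.00026).

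The deubiquitinase usp2b fell in PC, with 113, 56.5, 89.3, 158 and 112 CPM in PC 1 dpci ventricles, against 471, 390.0, 390.4, 483 and 321 CPM in PC 1 dps ventricles (log2 fold change -1.57 ± 0.30, adjusted p = 0.00053). Its SF change was 0.51 ± 0.30, and the difference was -2.08 ± 0.39 (adjusted p = 0.002). In the other pair named by this test the fall lay in SF. Cox6b1, a subunit of complex IV, changed by 0.40 ± 0.26 in PC and -1.36 ± 0.26 in SF (difference 1.76 ± 0.33, adjusted p = 0.0029). The reticulon rtn2a changed by 0.99 ± 0.30 in PC and -1.06 ± 0.31 in SF (difference 2.05 ± 0.39, adjusted p = 0.0031). Neither was called in PC. The sign of the cox6b1 change in PC depended on the factor, and it was -0.18 without it.

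Among the genes with the largest increases in PC, TNFRSF6B, zgc:136410, si:dkey-88e18.2 and adam8a also differed between the populations, by 3.17 ± 0.65, 2.94 ± 0.61, 5.25 ± 1.18 and 2.38 ± 0.55 (adjusted p 0.0056, 0.0064, 0.016 and 0.021). The levels of TNFRSF6B in SF were 32.4 ± 22.4 CPM at 1 dpci and 8.63 ± 4.77 CPM at 1 dps. For pfn1 the difference was 1.40 ± 0.33 (adjusted p = 0.026), with an SF change of -0.01 ± 0.27. Of the genes that fell, klf17 differed by -4.33 ± 0.85 (adjusted p = 0.0043), and slc16a9a by -1.87 ± 0.38 (0.0056). No difference was called for the cathepsin ctsla (0.47 ± 0.46, adjusted p = 0.878), for her6 (-0.98 ± 0.37, 0.282) or for hmgb3a (-0.51 ± 0.21, 0.338). These values with their errors do not show that the populations responded alike.

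**Figure D5:**
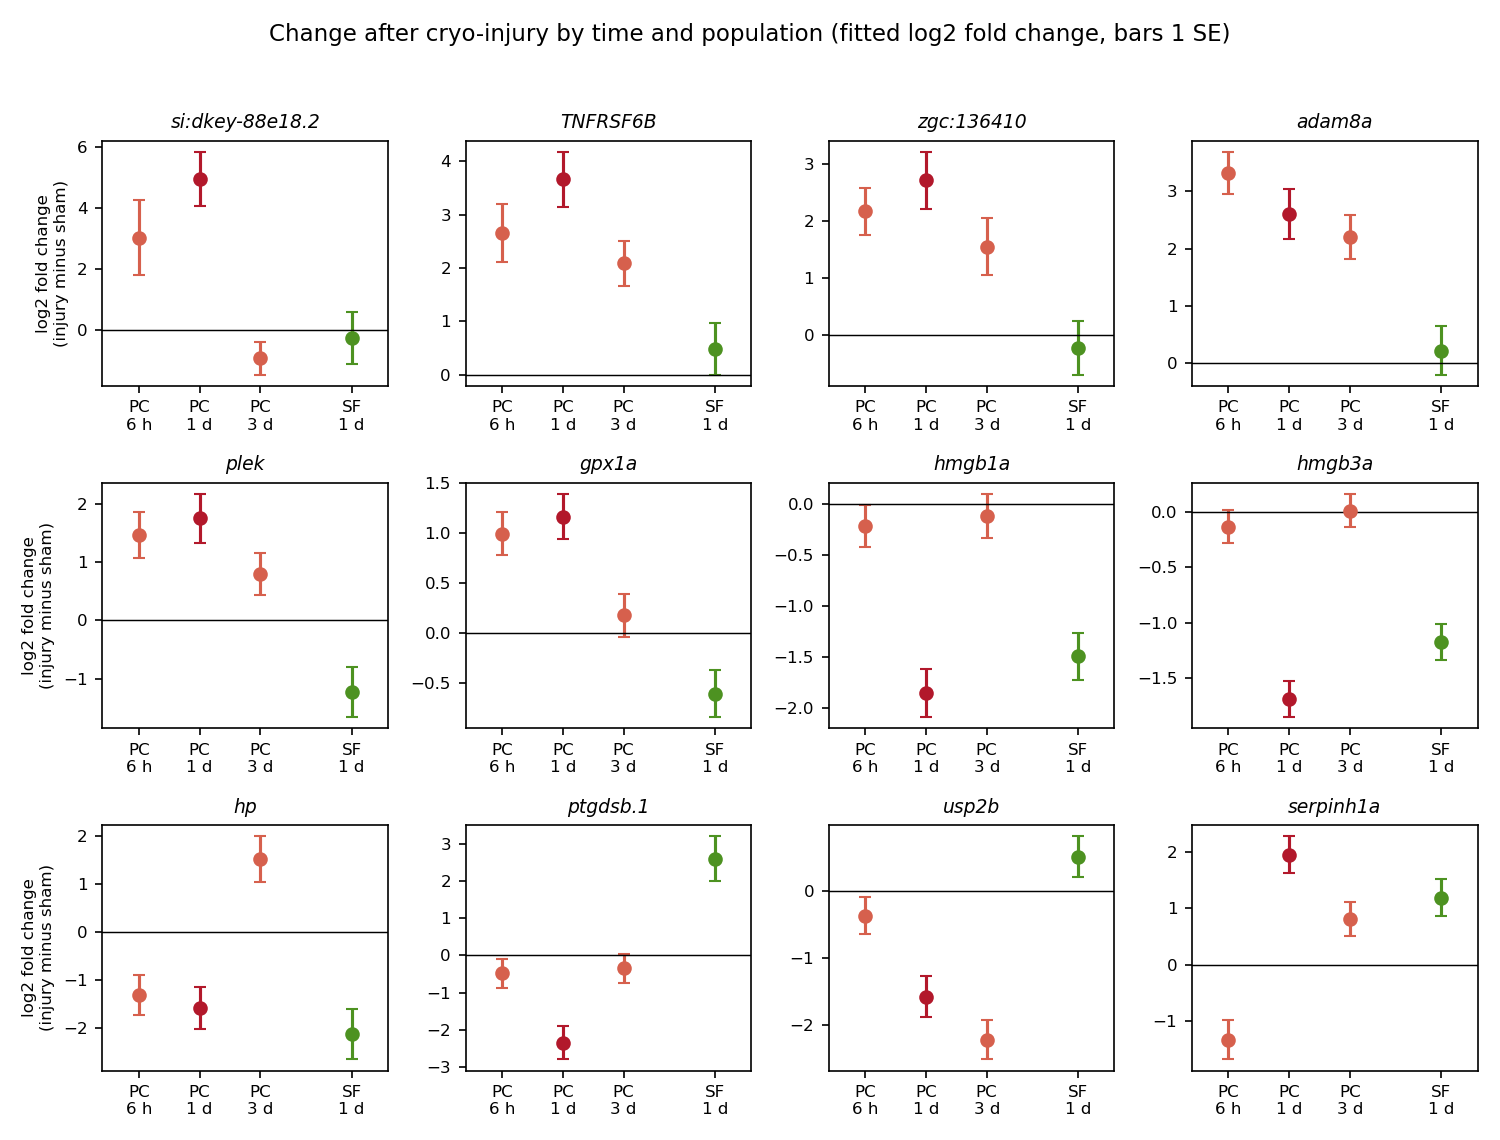
Fitted log2 fold change after cryo-injury against sham for 12 genes in PC at 6 h, 1 day and 3 days and in SF at 1 day, with bars of 1 SE and a line at 0. The 1 day change of hmgb3a is -1.69 ± 0.16 in PC and -1.18 ± 0.16 in SF, while the PC changes at 6 h and 3 days lie near 0. The 3 day value of si:dkey-88e18.2 includes PC 3 dps replicate 5, which stands apart.

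Against the change 6 h after injury in other PC ventricles, 77 genes differed (0.41%), 29 with a more positive (0.155%) and 48 with a more negative change at 1 day (0.256%). The 6 h comparison itself called 408 genes (2.17%). Of the 149 genes higher at 1 day, 49 were also called as higher at 6 h (1.82% of all genes were), with a median 6 h log2 fold change of 0.84. Of the 117 lower genes, 6 were also called as lower at 6 h (0.352% of all genes were), with a median of -0.42. Without PC 1 dpci replicate 1 or PC 1 dps replicate 1 the count of differing genes was 39 and 40. Serpinh1a turned round between the times. It was lower at 6 h, at 10.4 ± 5.5 CPM in PC 6 hpci and 23.1 ± 12.9 CPM in PC 6 hps (log2 fold change -1.34 ± 0.35), and the 1 day change exceeded the 6 h change by 3.29 ± 0.46 (adjusted p = 1.4e-06).

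Hmgb3a was not called at 6 h, with 410.3 ± 62 CPM in PC 6 hpci and 463 ± 52.1 CPM in PC 6 hps (log2 fold change -0.13 ± 0.15, adjusted p = 0.778), and the difference was -1.55 ± 0.21 (adjusted p = 5.7e-07). For hmgb1a it was -1.63 ± 0.30 (0.00099). The histone demethylase kdm6ba rose at 6 h by 2.63 ± 0.30 on the log2 scale and was 0.02 ± 0.32 at 1 day (difference -2.61 ± 0.41, adjusted p = 3.2e-05). The mitochondrial gene prelid3b and the myelin gene pmp22b rose at 6 h by 1.02 ± 0.22 and 1.35 ± 0.23. At 1 day prelid3b had 111, 124, 120.5, 95.4 and 117 CPM in PC 1 dpci ventricles, against 287, 291, 302, 246 and 286 CPM in PC 1 dps ventricles (log2 fold change -0.96 ± 0.24, adjusted p = 0.012). Pmp22b had 79.2 to 124 CPM in PC 1 dpci and 187 to 257 CPM in PC 1 dps ventricles (log2 fold change -0.46 ± 0.24, adjusted p = 0.4). Their differences were -1.98 ± 0.31 and -1.82 ± 0.31 (adjusted p 3.2e-05 and 0.00032). STXBP6, a syntaxin-binding protein, changed by -1.63 ± 0.23 at 6 h and by 0.16 ± 0.24 at 1 day (difference 1.80 ± 0.32, adjusted p = 0.00041).

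Against the change 3 days after injury, 26 genes differed (0.139%), 19 with a more positive (0.101%) and 7 with a more negative change at 1 day (0.0373%). The 3 day comparison itself called 355 genes (1.89%). Of the 149 genes higher at 1 day, 39 were also called as higher at 3 days (0.858% of all genes were), with a median 3 day log2 fold change of 0.87. Of the 117 lower genes, 15 were called as lower (1.03% of all genes were), with a median of -0.62. The sham library PC 3 dps replicate 5, which these 3 day counts and medians include, stood apart. Its mean log2(CPM + 1) over the 149 genes was 4.84, against 3.34 to 3.84 in the other 4 PC 3 dps libraries and 5.04 to 5.35 in PC 3 dpci libraries. Without it 32 genes differed between the times, 23 of them among the 26. The count also fell to between 9 and 12 without any of PC 1 dpci replicates 1, 3 and 4 and PC 1 dps replicates 1, 2 and 3.

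At 3 days neither HMGB gene was called. Hmgb3a averaged 369 ± 60.1 CPM in PC 3 dpci and 382 ± 63.4 CPM in PC 3 dps, and its changes differed by -1.70 ± 0.21 (adjusted p = 1.5e-08, 1.5e-07 without the library that stood apart). For hmgb1a the difference was -1.73 ± 0.30 (adjusted p = 0.00051, and 0.0023 without that library). Mfap4 and hp, lower at 1 day, had 3 day changes of 1.81 ± 0.56 and 1.51 ± 0.48 and differed by -4.10 ± 0.71 and -3.10 ± 0.60 (adjusted p 0.00051 and 0.0037, and 0.0023 and 0.016 without that library). The actin cross-linker flnca had 109 to 268 CPM in PC 1 dpci and 105 to 176 CPM in PC 1 dps ventricles at 1 day (log2 fold change 0.88 ± 0.23, adjusted p = 0.018), a 3 day change of -0.71 ± 0.22 and a difference of 1.59 ± 0.30 (adjusted p = 0.0021, and 0.0023 without that library). For si:dkey-88e18.2 the difference of 5.90 ± 1.06 (adjusted p = 0.001) rested on PC 3 dps replicate 5, which held 483 CPM. The other 4 PC 3 dps libraries held 0.555 to 7.30 CPM and PC 3 dpci libraries 33.8 to 65.3 CPM. Without that library the difference was 2.03 ± 0.96 (adjusted p = 0.539).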

How the data were processed

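Ventricles were pooled in no library: each of the 96 fish gave 1 library (QuantSeq 3′ FWD). Per the labels and the study's methods, the authors trimmed reads with Trim Galore 0.6.4 after bcl2fastq 2.20.0, aligned both populations with STAR 2.7.6a to the surface fish assembly Mexican tetra 2.0, and deposited raw read counts per gene for a customized Ensembl annotation. They tested them with DESeq2 and RUVg. The number of their RUVg factors and the handling of strand and multiply mapped reads are not given in the sources used here, nor is a sequencing batch. The authors also deposited a table of rlog values on a log2 scale, of which only symbols and descriptions were used, since 9 of its values lie beyond such a scale. Coordinates came from the deposited annotation. All sample columns were mapped, and 0 were left out.

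From the counts, 18763 of 27420 genes that reached 1 CPM in any library entered the test, with edgeR 4.0.16 (TMM, quasi-likelihood, R 4.3.3) in 1 model of 20 groups and 1 RUVg factor, built from genes whose coefficient of variation lay below the median. Differences between changes were contrasts in the same model. P-values measure the spread between fish. Alternatives were DESeq2 1.42.0, no or 2 factors, other scaling and filters, a fit of only the groups compared, a replicate block, and libraries left out. Named genes were the 12 highest and 12 lowest called genes with a symbol and at least 10 CPM, up to 4 called members per list by smallest p (1 where none was called), and 6 per difference test. Beyond that rule, 28 genes and nrp1a were chosen after their values were seen, as marked, and 3 of them are not reported here. The members, lists and markers were chosen with earlier results of these data known. A floor of 3 reads per library bounds folds against groups at 0, and covers counting error only.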

Additional observations from a re-analysis of the deposited data

Results flagged for a closer look

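Among the named genes, 217 groups of 5 ventricles were checked for a library far from the other 4, of which chance alone marks about 1 in 20, and 17 were marked. In PC 1 dpci, anxa1a stood at 152 CPM in replicate 4. Il11a at 25.2 CPM, ctsk at 341 CPM, ctsla at 98.7 CPM, pfn1 at 2094 CPM and capza1a at 121 CPM stood above the other ventricles in replicate 2, which was the replicate most often highest. Replicate 3 held the highest c1qa, at 36.6 CPM, and csf1ra, at 143 CPM, and the lowest pfkfb4a, at 78.1 CPM. PPARG was lowest in replicate 4, at 12.5 CPM. In PC 1 dps, replicate 1 was highest for c1qb at 29.9 CPM, mhc1uba at 33.9 CPM and csf1ra at 72.8 CPM, and replicate 4 was highest for ltb4r at 5.94 CPM and lowest for prelid3b at 246 CPM. Hmgb3a was lowest in replicate 5, at 353 CPM, and kdm6ba in replicate 3, at 9.93 CPM.

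Besides named genes described above, such as adam8a and klf17 against SF, 18 results were flagged by the test of the difference between changes itself. By the rule for named genes, they were the 6 called genes with a symbol and the smallest p in each such test. Between PC and SF at 1 day these were ptgdsb.1 (PC change minus SF change -4.95 on the log2 scale), gpx1a (1.77), plek (2.98), usp2b (-2.08), cox6b1 (1.76) and rtn2a (2.05). Between 1 day and 6 h in PC they were serpinh1a (3.29), hmgb3a (-1.55), prelid3b (-1.98), kdm6ba (-2.61), pmp22b (-1.82) and STXBP6 (1.80). Between 1 day and 3 days they were si:dkey-88e18.2 (5.90), mfap4 (-4.10), hmgb1a (-1.73), hp (-3.10), hmgb3a (-1.70) and flnca (1.59). The difference of si:dkey-88e18.2 was 2.03 without PC 3 dps replicate 5, and the other 5 named differences from the 3 day change kept their call without it.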

How the results depend on the processing

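The count of genes called between PC 1 dpci and PC 1 dps depended on the factor of unwanted variation and on which libraries were fitted, and the cause was not tested. It was 266 as reported, 779 without the factor and 24 with 2 factors. A filter of at least 10 counts in at least 5 libraries, which also changed the genes the factor was built from, gave 53. Fitting the compared groups alone gave 599 genes with the factor and 1102 without it. DESeq2 (389), its size factors (276) and no filter (361) kept the count within 1.5-fold. The PC change minus the SF change was called for 59 genes as reported, 141 with DESeq2, 23 without the factor, 110 without a filter, and 212 with and 205 without the factor with the compared groups fitted alone. The 1 day change minus the 6 h change was called for 77 genes, 172 with DESeq2, and 364 with and 279 without the factor with the compared groups fitted alone. The 1 day change minus the 3 day change was called for 26 genes, 58 with DESeq2, 51 without a filter and 73 with the compared groups fitted alone with the factor. Leaving out replicates or single libraries gave 50 to 353 genes for the main comparison, 0 to 62 against SF (where 1892 genes had an unadjusted p under 0.05 with all libraries), 9 to 94 against 6 h and 4 to 32 against 3 days.

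Replicate numbers are shared between the groups, and the fish were treated as unpaired. Same-numbered ventricles deviated together weakly or not at all (correlations of -0.29, 0.08, 0.10, 0.15 and -0.05 over 5551 genes). For replicates 3 and 4 the same number was the best match. Such correlations cannot decide whether equal numbers shared a handling step, which the sources used here do not state. With a replicate block and the compared groups fitted alone, 372 genes were called at 1 day, 199 against SF, 275 against 6 h and 48 against 3 days.

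Of 115 named results that were called, 20 were kept in all alternatives and 95 lost their call in at least 1. Losses were most frequent with 2 factors (83 lost), without replicate 1 of every group compared (72 lost) or with the stricter filter (68 lost). Without the factor 8 were lost. None was lost with DESeq2, which gave no adjusted p for TLR5. Those lost without the factor were il11a, mhc1uba, col4a1, s100w, mdh1ab, kdrl, epas1b and c3a.1. None of the 115 changed sign. Signs changed only for 3 uncalled changes at 1 day. Cox6b1 was -0.18 and STXBP6 was -0.0172 without the factor, also with the compared groups fitted alone (-0.18 and -0.0185). Kdm6ba, 0.02 as reported, was -0.21 with 2 factors, -0.22 with the stricter filter, -0.74 with the compared groups fitted alone with the factor and -0.72 with the replicate block, and ranged from -0.14 to 0.20 with libraries left out.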
